A study of Drosophila melanogaster with 36 samples.

Results

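The genes hid, grim, rpr and skl lie in a row on chromosome arm 3L of Drosophila melanogaster, and the binding of the Hox proteins Dfd, Ubx and Abd-B around them was described from the lists of bound regions of 12 stable Kc167 lines. The window ran from 10 kb outside hid to 10 kb outside skl, chr3L:18157745-18449942 in dm6, which is 292198 bp. It held 204 of the 112270 regions that the 12 lists contain at a MACS2 q value of 1e-2, and every region that shared 1 bp with the window was taken. The study expressed GFP-tagged proteins in Kc167, a line of embryonic origin with features of fly blood cells (hemocytes), and used anti-GFP ChIP-Seq to ask how Hox proteins select their targets and how cofactors change that choice. Per the study, the parental cells make Exd but no Hth, so that Hth was present in the lines given it.

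The 4 genes encode proteins that start apoptosis in the fly. Each carries a short motif near its N terminus that binds inhibitor of apoptosis proteins such as Diap1, which releases caspases to act. The 4 genes respond to many developmental cues, and much of their regulatory DNA lies in the long intergenic stretches between them. Hox proteins are among their known regulators: rpr is a direct target of Dfd in the embryonic head, where cell death keeps the boundary between the maxillary and mandibular segments, and Abd-B activates rpr in the posterior abdomen of the embryo. Hth is a TALE homeodomain protein that brings its partner Exd into the nucleus, and the Exd and Hth pair binds DNA together with Hox proteins. Gcm is a zinc-binding transcription factor of glia and hemocytes.

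Dfd and Ubx were each expressed without a cofactor, with Hth, with Gcm and with Hth and Gcm together, and Abd-B without a cofactor and with Hth. A Hth line and a Gcm line carried no Hox protein. The tag was on the Hox protein where there was one, so that lines with an added cofactor still report the Hox protein. Proteins were driven by a copper-inducible promoter, cells were sorted on GFP fluorescence, and each line had 2 ChIP replicates and 1 input. CuSO4 differed between lines. It was 1 mM over 18 h for Ubx, Ubx+Hth and Hth. Over 24 h it was 0.5 mM for Abd-B, 2 mM for Dfd, 2.5 mM for Abd-B+Hth, Ubx+Gcm, Ubx+Hth+Gcm and Gcm, and 3.2 mM for Dfd+Gcm. Dfd+Hth received 2.66 mM and Dfd+Hth+Gcm 3.7 mM over 22 h. The lists join the overlapping regions of both replicates, hold no signal and no read counts, and so give no spread between replicates. The depth behind a single region is not in the lists. The study reports mapped reads per library for all lines but Dfd+Hth+Gcm and Ubx+Hth+Gcm. Mapped reads differ between lines, and counts of regions were not adjusted for them. The number of regions per line ranged from 4885 in Ubx+Hth to 13741 in Abd-B+Hth. Whether a line's cells kept the character of hemocytes, or expressed the 4 genes, cannot be read from region lists.

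The sequences that the results turn on were read from the RefSeq Release 6 genome (dm6) and are printed 5′ to 3′ on the plus strand. All 4 genes are on the minus strand, so that upstream lies at higher coordinates. Capitals mark matches on either strand to the words searched. These were the Exd-Hox octamers TGATTGAT, TGATTAAT and TGATTTAT, the HoxA 7-mers CTAATGA and CTAATTA as well as TTAATGA and TTAATTA with a TAAT core, the HoxB 7-mers TTTATGA and TTTATGG as well as TTTATTA and TTTATTG with the TTAT core preferred by Abd-B, and the Gcm 8-mers ATACGGGC, ATACGGGT, ATGCGGGC and ATGCGGGT. Overlapping matches were counted separately, and of the 18 octamers in bound stretches of the window 3 shared a base with a HoxA 7-mer and 3 with a HoxB 7-mer.

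Upstream of rpr, 3 sequences are shown because the lines divided between them. The first, chr3L:18400753-18400912, surrounds the Gcm 8-mer of the region held by Ubx+Hth+Gcm and Gcm. The second, chr3L:18401920-18402219, is the middle of the part that 10 lines share. The third, chr3L:18402910-18403209, is the middle of the part that all 4 Ubx lines, Abd-B, Hth and Gcm held and no Dfd line did. The first is marked for Gcm 8-mers and the other two for octamers and Hox 7-mers.
rpr-proximal: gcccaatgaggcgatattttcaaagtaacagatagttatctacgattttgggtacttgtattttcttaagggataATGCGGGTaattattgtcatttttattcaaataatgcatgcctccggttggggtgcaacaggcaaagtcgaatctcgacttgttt
rpr-10: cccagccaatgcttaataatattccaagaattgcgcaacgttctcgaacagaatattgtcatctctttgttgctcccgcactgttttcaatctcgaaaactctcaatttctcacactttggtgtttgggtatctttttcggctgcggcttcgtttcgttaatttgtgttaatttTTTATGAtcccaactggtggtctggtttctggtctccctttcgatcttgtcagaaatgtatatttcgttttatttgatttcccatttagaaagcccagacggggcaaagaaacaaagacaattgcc
rpr-Ubx: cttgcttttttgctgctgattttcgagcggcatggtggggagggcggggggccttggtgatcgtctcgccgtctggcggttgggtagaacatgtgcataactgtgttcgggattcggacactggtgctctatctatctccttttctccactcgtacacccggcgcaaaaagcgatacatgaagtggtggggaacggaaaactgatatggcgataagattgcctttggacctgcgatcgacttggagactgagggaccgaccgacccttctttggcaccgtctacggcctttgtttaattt
The second sequence had 1 HoxB 7-mer, TTTATGA, and the third had no match to an octamer or Hox 7-mer.

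Between hid and rpr, 5 sequences show the words in regions that differed between lines. Octamers and Hox 7-mers are marked in chr3L:18320665-18320819, shared by all 4 Dfd lines and Abd-B between grim and rpr, in chr3L:18255745-18255984 and chr3L:18288743-18288902, around the octamers of regions held in Dfd+Hth and Dfd+Hth+Gcm, and in chr3L:18336496-18336655, around the octamer of a region held in both Abd-B lines. In chr3L:18287609-18287868, on the hid side of grim and part of a stretch held in 9 lines, octamers and Gcm 8-mers are marked.
grim-rpr-Dfd: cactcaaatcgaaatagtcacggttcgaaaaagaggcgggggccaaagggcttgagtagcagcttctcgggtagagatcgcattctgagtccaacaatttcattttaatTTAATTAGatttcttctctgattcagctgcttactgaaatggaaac
hid-grim-Hth: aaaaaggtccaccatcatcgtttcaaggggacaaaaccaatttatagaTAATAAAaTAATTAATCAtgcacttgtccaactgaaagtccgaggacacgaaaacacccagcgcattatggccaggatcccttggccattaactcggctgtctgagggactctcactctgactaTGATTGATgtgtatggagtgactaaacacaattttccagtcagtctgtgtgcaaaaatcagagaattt
grim-Hth: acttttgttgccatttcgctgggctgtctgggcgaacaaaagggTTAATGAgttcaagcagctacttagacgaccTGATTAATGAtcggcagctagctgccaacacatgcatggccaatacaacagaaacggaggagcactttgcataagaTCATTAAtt
Abd-B: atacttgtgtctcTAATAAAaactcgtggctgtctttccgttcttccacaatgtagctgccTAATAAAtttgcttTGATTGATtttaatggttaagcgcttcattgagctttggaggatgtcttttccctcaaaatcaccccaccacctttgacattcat
grim-side: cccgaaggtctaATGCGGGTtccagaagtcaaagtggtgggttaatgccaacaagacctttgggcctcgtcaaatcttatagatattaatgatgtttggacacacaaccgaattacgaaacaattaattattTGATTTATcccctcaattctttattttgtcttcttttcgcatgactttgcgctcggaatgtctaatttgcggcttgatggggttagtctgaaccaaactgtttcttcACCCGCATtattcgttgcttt
The run TTAATTAG in the first of these reads as a HoxA 7-mer on each strand. The octamer TGATTAAT of the third runs into a HoxA 7-mer, and TGATTTAT of the last lies between 2 Gcm 8-mers on opposite strands.

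At skl, the 160 bases directly upstream of the annotated start, chr3L:18439943-18440102, are shown with the Gcm 8-mer in capitals, because the Gcm line alone bound over this start.
skl-start: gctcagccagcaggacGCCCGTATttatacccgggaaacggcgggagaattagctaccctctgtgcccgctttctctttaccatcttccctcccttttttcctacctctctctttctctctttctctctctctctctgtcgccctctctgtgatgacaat
The word is ATACGGGC on the minus strand, the strand of skl.

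The number of regions in the window differed widely between lines. Dfd had 18 regions, Dfd+Hth 24, Dfd+Gcm 16 and Dfd+Hth+Gcm 27. Ubx had 4 regions and Ubx+Hth 2, while Ubx+Gcm and Ubx+Hth+Gcm had 13 each. Abd-B had 25 and Abd-B+Hth 22, and of the cofactors expressed without a Hox protein Hth had 11 and Gcm 29. The Gcm line, which carried no Hox protein, thus had the highest count of the 12 lines. Since lists differ in length, counts were set beside 451 consecutive tiles of the same length on 5 chromosome arms. The window was below the tile median in Dfd (23), Dfd+Gcm (19), Ubx (11), Ubx+Hth (10), Ubx+Gcm (19), Ubx+Hth+Gcm (18), Abd-B (30), Abd-B+Hth (31) and Hth (19). It was above it in Dfd+Hth (21), Dfd+Hth+Gcm (19) and Gcm (25). Outside the middle 50% of tiles lay Ubx and Ubx+Hth, whose lower quartiles were 6 and 4, and Dfd+Hth+Gcm, whose upper quartile was 26.5.

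**Figure D1:**
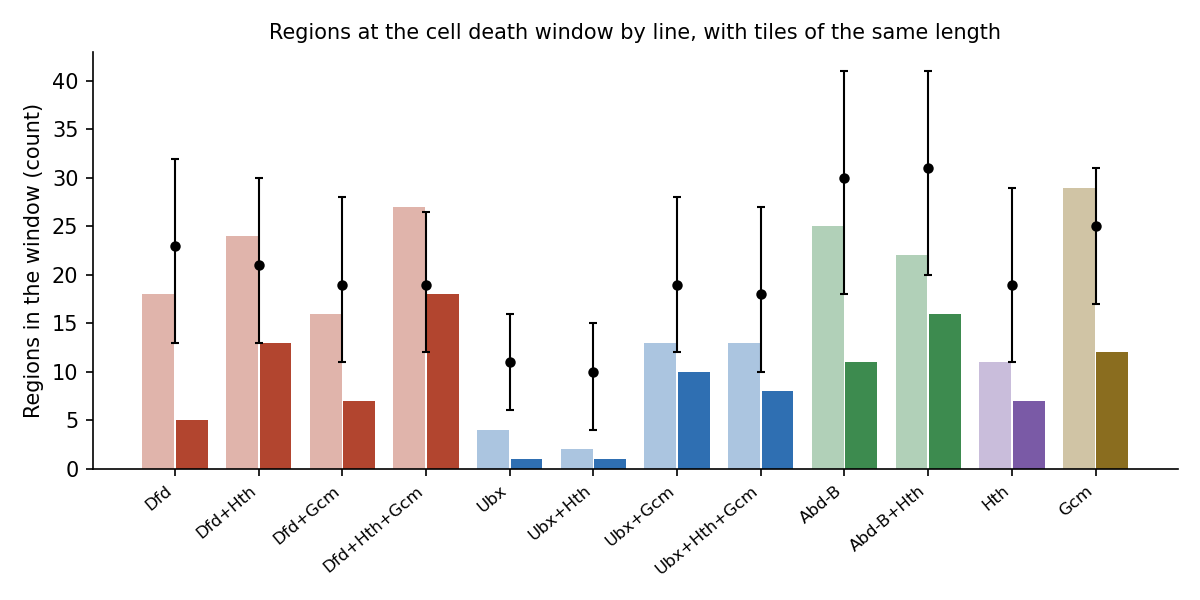
Number of regions in the window (y axis, count) for each of the 12 lines (x axis) at q 1e-2 (pale bars) and q 1e-10 (dark bars), with the median (point) and quartiles (whiskers) of 451 tiles of the same length at q 1e-2. Ubx and Ubx+Hth, with 4 and 2 regions, sit below the lower quartile of their tiles, and Dfd+Hth+Gcm, with 27, sits above the upper quartile.

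Of a line's regions, the share in the window was 0.174% in Dfd (95% exact binomial interval 0.103 to 0.274), 0.243% in Dfd+Hth (0.156 to 0.362), 0.180% in Dfd+Gcm (0.103 to 0.292) and 0.307% in Dfd+Hth+Gcm (0.203 to 0.447). It was 0.0758% in Ubx (0.0207 to 0.194) and 0.0409% in Ubx+Hth (0.00496 to 0.148), against 0.147% in Ubx+Gcm (0.0784 to 0.252) and 0.155% in Ubx+Hth+Gcm (0.0828 to 0.266). For Abd-B it was 0.185% (0.120 to 0.273) and for Abd-B+Hth 0.160% (0.100 to 0.242). Of the lines with no Hox protein, Hth had 0.122% (0.0610 to 0.219) and Gcm 0.270% (0.181 to 0.387), second to Dfd+Hth+Gcm. Intervals cover the counting of regions only, and those of neighbouring lines overlap. At q 1e-10 the order changed. Dfd+Hth+Gcm had the most regions with 18, followed by Abd-B+Hth with 16, Dfd+Hth with 13, Gcm with 12, Abd-B with 11 and Ubx+Gcm with 10. Ubx+Hth+Gcm had 8, Dfd+Gcm and Hth had 7 each, Dfd had 5, and Ubx and Ubx+Hth had 1 each.

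Regions were spread unevenly along the window. By their centres, 116 of the 204 regions lay in the 117077 bp between hid and grim, 35 in the 93117 bp between grim and rpr, 32 in the 40125 bp between rpr and skl, and 17 in hid. The transcribed parts of grim, rpr and skl held no region centre in any of the 12 lines. Per 10 kb this was 9.91 regions between hid and grim, 3.76 between grim and rpr and 7.98 between rpr and skl. Merging regions of all lines that overlap by 1 bp gave 61 stretches in the window, of 23270 in the genome, and these covered 15.9% of the window. The longest gap without a region of any line was 26.6 kb, chr3L:18289436-18316079, and contained grim with the genes CG5103 and CG13700. Gaps of that length or longer made up 2.24% of the 23055 gaps on the 5 arms. Gaps of 14.9 kb around rpr (6.18% as long or longer) and 17.4 kb downstream of the skl start (4.77%) were also among the 4 longest that touch the window.

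**Figure D2:**
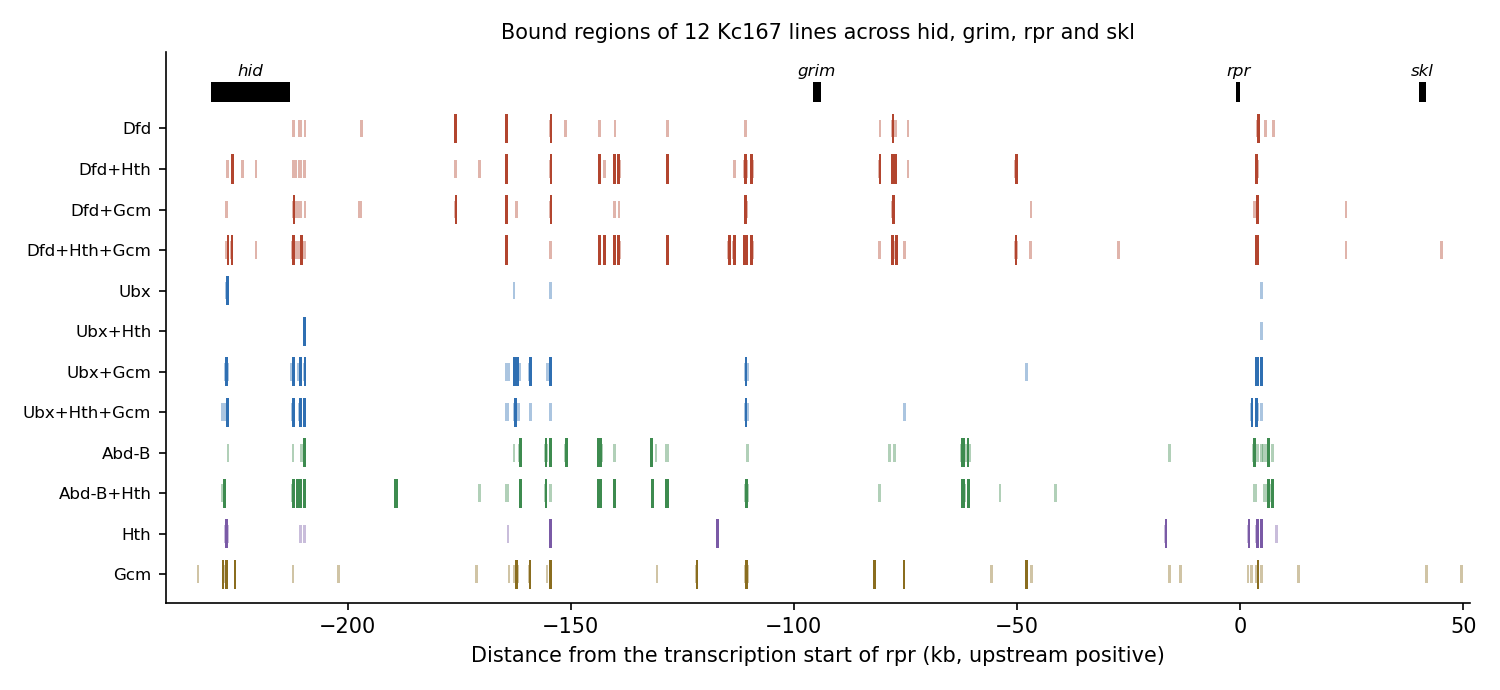
Regions of the 12 lines (rows) along the window, with distance from the transcription start of rpr in kb on the x axis and upstream positive. Pale marks are regions at q 1e-2 and dark marks at q 1e-10, coloured by tagged protein. Regions narrower than 0.6 kb are drawn at that width, and black bars are the genes. The regions lie in clusters between the genes, with none of any line over grim or rpr.

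hid (FBgn0003997, chr3L:18167745-18185641) had a region inside it or at most 2 kb away in 11 of the 12 lines, with Ubx+Hth as the exception. Of all 13945 protein-coding genes, the share with a region within 2 kb was 60.0% for Dfd, 56.2% for Dfd+Hth, 56.5% for Dfd+Gcm and 49.8% for Dfd+Hth+Gcm. It was 39.1% for Ubx, 28.2% for Ubx+Hth, 59.3% for Ubx+Gcm and 50.4% for Ubx+Hth+Gcm, and 71.4% for Abd-B, 72.1% for Abd-B+Hth, 56.6% for Hth and 57.7% for Gcm.

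At the hid start, 2 neighbouring stretches were each held in 10 lines. The stretch chr3L:18185572-18188224 reached from 69 bp inside the transcript to 2.58 kb upstream. It fell into a part near the start and a part further upstream, and contained 18 regions. Ubx and Ubx+Hth had none of these, whereas Ubx+Gcm had regions of 983 and 1065 bp and Ubx+Hth+Gcm of 841 and 797 bp, all present at q 1e-10. The region of Ubx+Gcm covered the start itself. The next stretch, chr3L:18188376-18189219, 2.74 to 3.58 kb upstream, was held by all 4 Dfd lines, Ubx+Hth, Ubx+Gcm, Ubx+Hth+Gcm, both Abd-B lines and Hth, but not by Ubx or Gcm. It was present at q 1e-10 in 5 lines, Ubx+Hth among them, and is 1 of the 2 regions that Ubx+Hth had in the whole window. At the other end of hid, an intronic stretch at chr3L:18170195-18171837 was held in 10 lines and at q 1e-10 in 7. Dfd alone lacked it, while Dfd+Hth had a region of 558 bp there, Dfd+Gcm 634 bp and Dfd+Hth+Gcm 839 bp. Ubx had a region of 689 bp there, and Ubx+Hth had none.

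Within the hid introns the Dfd lines differed from one another. Dfd had no region in hid, and Dfd+Gcm had 1. Dfd+Hth had 4 and Dfd+Hth+Gcm had 3. Stretches at chr3L:18172206-18172746 and chr3L:18177635-18178182 were held by Dfd+Hth and Dfd+Hth+Gcm and by no other line. The former was present at q 1e-10 in both and holds 4 HoxA 7-mers and no octamer. Another, chr3L:18174567-18174943, was held by Dfd+Hth and had the octamer TGATTGAT. The Gcm line had a region over a coding exon, chr3L:18172906-18173542, that no Hox line shared.

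**Figure D3:**
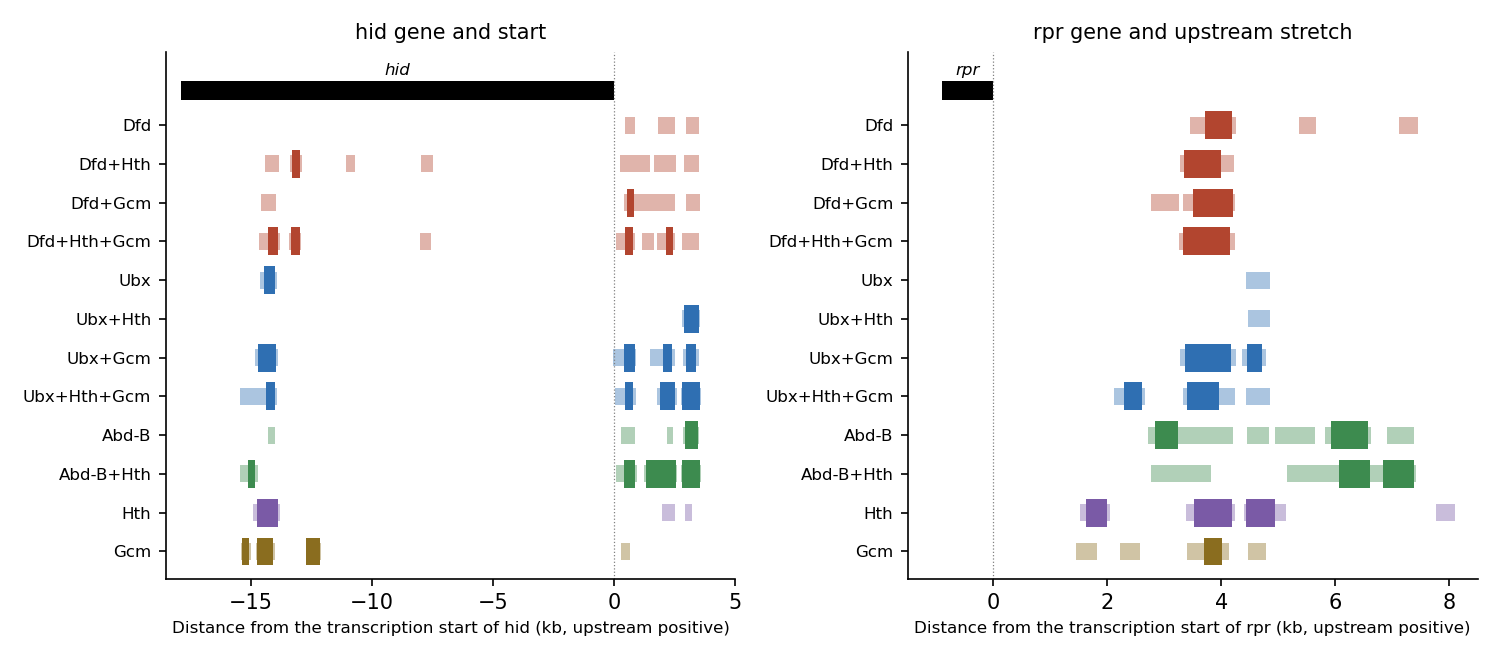
Regions of the 12 lines (rows) at hid (left) and upstream of rpr (right), with distance from each gene's transcription start in kb on the x axis and upstream positive. Pale bars are q 1e-2 and dark bars q 1e-10, and black bars are the genes. Upstream of rpr, the 4 Dfd lines are among the 10 lines that hold the stretch from 2.72 to 4.26 kb, which Ubx and Ubx+Hth lack. All 4 Ubx lines, Abd-B, Hth and Gcm hold the part directly beyond 4.37 kb, and Dfd has regions of 302 and 329 bp further out. At hid the intronic regions from 7.46 to 8.01 kb inside the gene are those of Dfd+Hth and Dfd+Hth+Gcm.

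grim (FBgn0015946, chr3L:18302719-18304417) had no region of any line within 10 kb. The nearest region to its start was at 11.7 kb upstream, in the Gcm line (chr3L:18316080-18316619), with the Gcm 8-mer ATGCGGGT. In the Dfd lines the nearest lay 12979 bp upstream in Dfd, 12930 bp in Dfd+Hth, 15881 bp in Dfd+Gcm and 12948 bp in Dfd+Hth+Gcm. For Ubx it was 60297 bp downstream and for Ubx+Hth 98487 bp upstream, close to rpr. On the downstream side, the stretch chr3L:18287061-18288413 was held in 9 lines, in 7 of them at q 1e-10. These were all 4 Dfd lines, Ubx+Gcm, Ubx+Hth+Gcm, both Abd-B lines and Gcm. It carries 2 octamers and 2 Gcm 8-mers, part of which is printed as grim-side. Its neighbour chr3L:18288507-18289435, printed in part as grim-Hth, was held by Dfd+Hth and Dfd+Hth+Gcm at q 1e-10 and by no other line at q 1e-2. It had 8 HoxA 7-mers and 1 octamer.

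rpr (FBgn0011706, chr3L:18397535-18398435) was flanked by bound stretches on its upstream side, and the nearest on its downstream side was 13.4 kb from the start. Regions within 2 kb of the gene were found in the Hth line (chr3L:18399961-18400486, 526 bp, also at q 1e-10) and in the Gcm line (chr3L:18399878-18400249, 372 bp), and in no line with a Hox protein. The stretch from 2.12 to 2.66 kb upstream was held by Ubx+Hth+Gcm, with a region of 548 bp that was present at q 1e-10, and by Gcm with 351 bp. It contained 1 Gcm 8-mer, the one printed in rpr-proximal, and no Hox word.

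The main stretch upstream of rpr, chr3L:18401157-18402693, 2.72 to 4.26 kb from the start, was held in 10 lines, and in 9 of these at q 1e-10, more than any other stretch of the window. The region was 812 bp wide in Dfd, 947 bp in Dfd+Hth and 976 bp in Dfd+Hth+Gcm, and Dfd+Gcm had 2, of 497 and 902 bp. In Ubx+Gcm it was 989 bp and in Ubx+Hth+Gcm 919 bp, in Abd-B 1488 bp and in Abd-B+Hth 1063 bp, in Hth 871 bp and in Gcm 737 bp. Ubx and Ubx+Hth had none. The line without a region at q 1e-10 was Abd-B+Hth. In Abd-B the region at q 1e-10 lay at chr3L:18401279-18401671, apart from those of the other 8 lines, which lay between 18401770 and 18402634. The stretch held 3 HoxA and 4 HoxB 7-mers, no octamer and no Gcm 8-mer.

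Beyond it, chr3L:18402805-18405887 was held in 9 lines, and its parts were held by different sets of lines. A part next to the main stretch held regions of all 4 Ubx lines, of 416 bp in Ubx, 397 bp in Ubx+Hth, 411 bp in Ubx+Gcm and 428 bp in Ubx+Hth+Gcm. Abd-B (400 bp), Hth (736 bp) and Gcm (326 bp) had a region there too. The Dfd lines and Abd-B+Hth had none. These were the regions nearest to rpr in Ubx and Ubx+Hth, at 4441 and 4469 bp. Each was absent at q 1e-10, while Ubx+Gcm and Hth had a region at q 1e-10 in this part. The regions of these 7 lines contained no octamer and no Hox 7-mer. The remainder of the stretch belonged to Abd-B, with regions of 704, 813 and 463 bp, to Abd-B+Hth, with a region of 2263 bp, and to Dfd, with regions of 302 and 329 bp that Dfd+Hth, Dfd+Gcm and Dfd+Hth+Gcm lacked. In this remainder both Abd-B lines had regions at q 1e-10 and Dfd had none. The region of Abd-B+Hth contained 15 HoxB and 8 HoxA 7-mers.

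On the grim side of rpr, the Dfd lines shared 1 stretch, chr3L:18320126-18321519, at 15.7 to 17.1 kb upstream of grim. All 4 Dfd lines held it at q 1e-10. Dfd+Hth+Gcm had a region of 1352 bp there, Dfd+Hth 1305 bp, Dfd 1216 bp and Dfd+Gcm 522 bp, and Abd-B had 262 bp at q 1e-2. No Ubx, Hth or Gcm line bound it. It held 8 HoxA 7-mers and no octamer. Further toward rpr, chr3L:18347784-18348698 was held at q 1e-10 by Dfd+Hth and Dfd+Hth+Gcm and by no other line. Its 4 HoxA 7-mers lay in the regions at q 1e-10. Its octamer TGATTTAT lay in the regions at q 1e-2 and outside those at q 1e-10. Dfd+Hth+Gcm alone held chr3L:18370902-18371345, 27.1 kb downstream of the rpr start, with the octamer TGATTGAT. Stretches of the Abd-B lines at chr3L:18335694-18336900 and chr3L:18337092-18338004 were present at q 1e-10 in Abd-B and Abd-B+Hth and in no other line at q 1e-2.

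skl (FBgn0036786, chr3L:18438561-18439942) had a region within 2 kb in the Gcm line and in no other. This region, chr3L:18439803-18440215, covered the start and 273 bp upstream, and was absent at q 1e-10. Dfd+Hth+Gcm had the only other region within 5 kb, 3211 bp upstream, of 316 bp, with the octamer TGATTTAT and 2 HoxA 7-mers. For Dfd+Gcm the nearest was 17587 bp downstream. The other 9 lines had no region closer than 20 kb, with distances between 20356 bp in Ubx+Hth+Gcm and 20789 bp in Hth, and in each of these it lay beyond the window.

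Few stretches of the window were shared by most lines. Of the 61 stretches, 22 (36.1%) were held in 1 line, against 35.3% over the genome, and 15 (24.6%) in 4 or more lines, against 40.2%. None was held in all 12 lines, against 6.89% over the genome, and the most widely held, chr3L:18243437-18244302 over the exon of lncRNA:CR45936 between hid and grim, was held in 11. Ubx+Hth was the line without it. Stretches held in Dfd lines alone were 15 (24.6%, against 8.72% over the genome), in the Gcm line alone 11 (18.0%, against 18.5%), in Abd-B lines alone 7 (11.5%, against 17.3%) and in the Hth line alone 3 (4.92%, against 2.51%). None was held in Ubx lines alone, against 1.22%. Of the 15 Dfd stretches, 10 were held in lines with Hth and in no other, which is 16.4% of the stretches of the window against 3.92% over the genome. An octamer lay anywhere in 7 of these 10 stretches, against 55.3% of the stretches of this kind over the genome. A region at q 1e-10 lay in 6 of the 10, not always over the octamer. In chr3L:18283553-18284235 and chr3L:18347784-18348698 the octamer lay outside the regions at q 1e-10. No test was made of these shares.

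The comparison of each Hox protein with and without Hth asks where the cofactor changes binding. A region was counted as gained when no region of the line without the cofactor overlapped it by 1 bp, and as lost in the other direction. In Dfd+Hth, 10 of 24 regions of the window were gained over Dfd, against 21.6% over the genome, and 4 of the 18 Dfd regions were lost (19.2%). In Dfd+Hth+Gcm, 13 of 27 were gained over Dfd+Gcm (27.0%) and 4 of 16 lost (26.4%). These 2 comparisons share no line, and 6 of the 10 and 6 of the 13 gained regions overlapped one another, against 58.2% and 52.7% over the genome. Ubx+Hth gained 1 of 2 (32.8%) and lost 3 of 4 (36.9%), and Ubx+Hth+Gcm gained 2 of 13 (21.0%) and lost 2 of 13 (27.3%) against Ubx+Gcm. Abd-B+Hth gained 7 of 22 (15.0%) and lost 8 of 25 (17.9%).

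Regions gained in Dfd lines with Hth were set beside the regions of the Hth line. Of the 10 gained in Dfd+Hth, 1 overlapped a region of the Hth line, against 29.6% over the genome, and of the 13 gained in Dfd+Hth+Gcm none did, against 32.4%. The 1 exception was the hid intron stretch held in 10 lines. Overlap with the Hth line was also lower than over the genome for all regions of the window. It was 6 of 24 in Dfd+Hth (60.1% over the genome) and 6 of 27 in Dfd+Hth+Gcm (60.9%). In Dfd it was 5 of 18 (62.0%) and in Dfd+Gcm 6 of 16 (63.3%). An octamer lay in 4 of the 10 regions gained in Dfd+Hth (47.6% over the genome) and in 6 of the 13 gained in Dfd+Hth+Gcm (46.8%). Among regions not gained, 3 of 14 (25.2%) and 4 of 14 (23.3%) had one. In Abd-B+Hth, 1 of 7 gained regions had an octamer (29.3%), at chr3L:18208881-18209751, and 5 of 15 not gained (23.9%), and 2 of the 7 overlapped a region of the Hth line (12%). The differences between lines were not tested.

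The share of a line's regions that lay in the window was compared over pairs of lines. With Hth it was higher in 3 of 5 pairs, with a mean difference of 0.029 percentage points ± 0.068 (SD, n = 5 pairs). An exact sign-flip permutation test gave p = 0.44 (two-sided), where 5 pairs allow no p below 0.063. The difference was 0.0698 for Dfd and 0.127 for Dfd+Gcm, but -0.0348 for Ubx, -0.0249 for Abd-B and 0.00813 for Ubx+Gcm. Without the pair Dfd+Gcm and Dfd+Hth+Gcm, the mean was 0.00453. The pairs share the Hth treatment but not its CuSO4, which differed between the members of 3 of the 5 pairs and was equal for Ubx and for Ubx+Gcm. The part of induction in these differences was not tested.

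**Figure D4:**
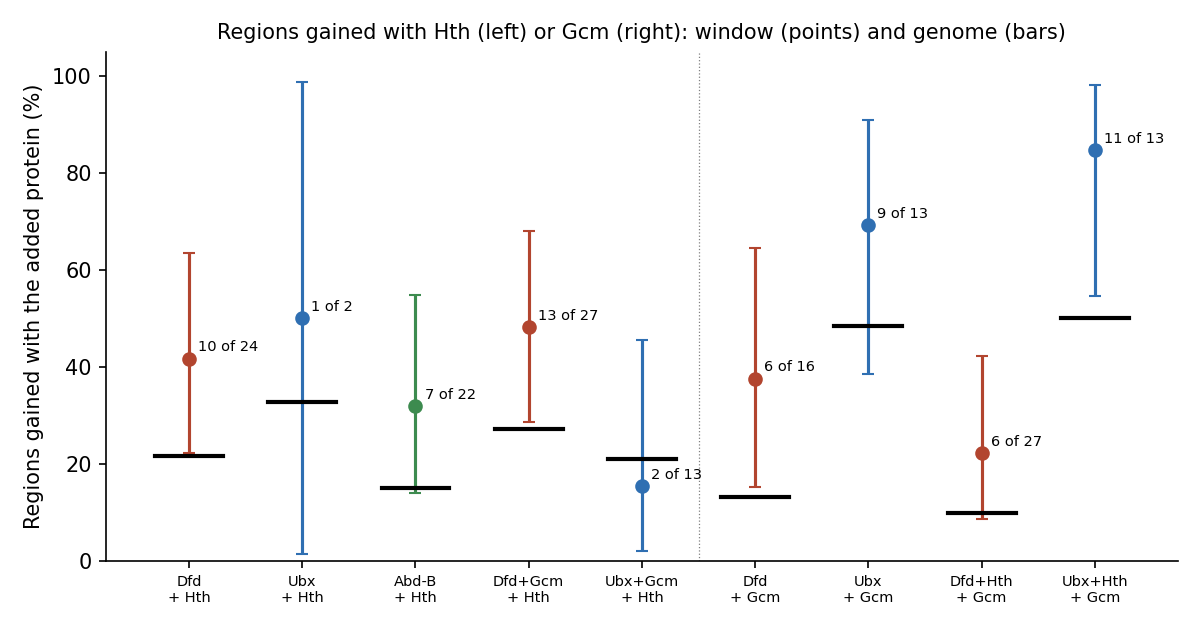
Percent of a line's regions in the window that were gained with Hth (left of the dotted line) or with Gcm (right), with 95% exact binomial intervals (points and whiskers) and the count beside each point. Black bars give the percent over all regions of the same line. The intervals treat regions as independent, cover the counting of regions only, and hold no spread between replicates or lines. The difference between points and bars was not tested. The points of the Dfd lines lie above their bars, with 10 of 24 and 13 of 27 gained with Hth, and Ubx gained 9 of 13 and 11 of 13 with Gcm.

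With Gcm, the largest counts of gained regions in the window were those of the Ubx lines. Ubx+Gcm gained 9 of its 13 regions over Ubx, against 48.4% over the genome, and kept all 4 Ubx regions (0 lost, 7.09%). Ubx+Hth+Gcm gained 11 of 13 over Ubx+Hth (50%) and kept both of its regions (0 lost, 11.5%). Of the 9 gained, 7 overlapped a region of the Gcm line (50.4% over the genome), and of the 11 gained 10 did (49.1%). This overlap was not particular to gained regions. Of all regions in the window, 11 of 13 in Ubx+Gcm (54.4%) and 11 of 13 in Ubx+Hth+Gcm (51.5%) overlapped one. Without Gcm, 4 of 4 in Ubx (52.7%) and 1 of 2 in Ubx+Hth (47.5%) did. Gained in both comparisons were regions at the hid start, the main rpr stretch and the stretch on the downstream side of grim, and 6 of the 9 and 6 of the 11 overlapped one another (41.8% and 43.1%). The Dfd lines had smaller counts, with 6 of 16 gained (13.1%) and 7 of 18 lost (25.2%) in Dfd+Gcm, and 6 of 27 gained (9.83%) and 4 of 24 lost (23.5%) in Dfd+Hth+Gcm against Dfd+Hth. Of these, 3 of 6 (55.5%) and 2 of 6 (52.5%) lay over regions of the Gcm line. CuSO4 was 1 mM over 18 h in Ubx and Ubx+Hth and 2.5 mM over 24 h in Ubx+Gcm and Ubx+Hth+Gcm, and the list grew from 5278 to 8827 and from 4885 to 8365 regions. CuSO4 was also higher with Gcm in the Dfd pairs. It was 3.2 mM in Dfd+Gcm against 2 mM in Dfd, and 3.7 mM in Dfd+Hth+Gcm against 2.66 mM in Dfd+Hth. Gcm and induction cannot be told apart in any of the 4 pairs. The share of regions in the window was higher with Gcm in 4 of 4 pairs, by 0.064 percentage points ± 0.044 (SD, n = 4 pairs), and the exact sign-flip permutation test gave p = 0.13 (two-sided), the smallest that 4 pairs allow.

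Words of the different classes were spread differently over bound and unbound DNA of the window. Gcm 8-mers were rare, with 25 in the window, and 16 (64.0%) of them lay in stretches, at 3.44 per 10 kb against 0.366 per 10 kb outside. Exd-Hox octamers were no denser in stretches, with 18 of 117 (15.4%) there, at 3.87 per 10 kb against 4.03 outside. HoxA 7-mers had 113 of 539 in stretches, at 24.3 per 10 kb against 17.3, and HoxB 7-mers 120 of 649, at 25.8 against 21.5. Over the whole stretch, an octamer was found in 15 of 61 stretches (24.6%, against 23.8% of all stretches in the genome), a HoxA 7-mer in 38 (62.3%, against 53.2%), a HoxB 7-mer in 42 (68.9%, against 65.5%) and a Gcm 8-mer in 15 (24.6%, against 14.7%). Stretches differ in width, so that these shares are descriptions.

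In the central 200 bp of their regions, the words of the tagged protein were counted with no test of the shares. A HoxA 7-mer was found in 8 of 18 regions of Dfd (44.4%, against 33.6% over the genome), 12 of 24 of Dfd+Hth (50%, 33.7%), 9 of 16 of Dfd+Gcm (56.2%, 32%) and 14 of 27 of Dfd+Hth+Gcm (51.9%, 33.7%). Abd-B had a HoxB 7-mer in 12 of 25 (48.0%, 37.3%) and Abd-B+Hth in 13 of 22 (59.1%, 40.2%). The Gcm line had a Gcm 8-mer in 12 of 29 (41.4%, 23.6%), with an exact binomial interval of 23.5% to 61.1%. Of the 11 stretches that the Gcm line alone held, 7 contained a Gcm 8-mer, against 45.1% of such stretches over the genome. Ubx had 1 HoxA 7-mer and no HoxB 7-mer in its 4 regions, and Ubx+Hth 1 HoxB 7-mer in its 2. In a set this small, the intervals span most of the range (0.631% to 80.6% for the former).

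The other genes of the window varied in binding within 2 kb. Of the 9 protein-coding genes, CG13699, CG5103 and CG13700 had no region within 2 kb in any line. CG7320 had a region in Dfd and Dfd+Gcm, and CheA75a in Dfd, Dfd+Hth, Dfd+Hth+Gcm, Abd-B and Abd-B+Hth. Among the 10 noncoding genes, lncRNA:CR45936 and lncRNA:CR45937 each had a region within 2 kb in 11 lines, and regions overlapped the gene itself in 11 lines and in 5. lncRNA:CR46353 had a region within 2 kb in 5 lines, lncRNA:CR43280 in 2 and lncRNA:CR45234 in 1, and the other noncoding genes had none in any line.

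Other genes of the apoptotic pathway were counted on a list of 23, beside grim with a region within 2 kb in 0 lines, rpr in 2 and skl in 1. Within 2 kb, Dfd bound 20 of the 23 (against 60.0% of all protein-coding genes), Dfd+Hth 20 (56.2%), Dfd+Gcm 19 (56.5%) and Dfd+Hth+Gcm 19 (49.8%). Ubx bound 17 (39.1%), Ubx+Hth 13 (28.2%), Ubx+Gcm 22 (59.3%) and Ubx+Hth+Gcm 21 (50.4%). Abd-B bound 22 (71.4%), Abd-B+Hth 21 (72.1%), Hth 20 (56.6%) and Gcm 15 (57.7%). Genes of different length are not alike in their chance of holding a region. Diap1, the inhibitor that the 4 proteins bind, had 5 to 7 regions in each of the 12 lines, and Diap2, a relative, had 1 to 4. Dark, the adaptor of the apoptosome, had 1 to 3 in each line, and Dronc, the initiator caspase that Dark activates, was bound in 10 lines, without Ubx+Hth and Gcm. Drice and Dcp-1, the effector caspases, were bound in 11 and 10 lines. The caspases Decay and Damm were bound in 3 lines and in 1.

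The other genes of the list, among them regulators upstream of these, were counted in the same way. How many of all protein-coding genes were bound in as many lines as a gene of the list was not counted. puc, a phosphatase that restrains JNK, had 7 to 14 regions in every line, and bsk, the JNK kinase itself, 1 to 4. egr, the TNF ligand, had 1 to 5 in every line, and of its receptors wgn had 2 to 7 and grnd was bound in 6 lines. hep, the kinase above bsk, was bound in 11 lines, and p53 in 11, with Ubx+Hth lacking both. Of the Bcl-2 family, Buffy and Debcl were each bound in 11 lines and not in Gcm. Dredd and HtrA2 were bound in all 12 lines, Bruce in 11, Strica and Prx4 in 10 and Det in 5.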

How the data were processed

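Binding in the 12 lines was taken from the deposited lists (24 ChIP and 12 input libraries). In the authors' processing, Bowtie 1.2.2 aligned the reads to dm6 and MACS2 2.1.1.20160309 called peaks of each replicate over input, at q 1e-2 and q 1e-10. The authors removed peaks over exons carried by plasmids, and merged overlapping regions of both replicates. The deposited score was 0 in every row and was not used, and no depth is given in the lists. Regions wider than the underlying peaks follow from this merging, and a region missing from a list is not a measured absence.

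Windows, overlaps (1 bp), merged stretches and words were counted with numpy 2.4.6 and scipy 1.17.1 under Python 3.11.15, with genes from Ensembl release 115. Code was tested on simulated data, and bedtools 2.31.1 gave equal counts in 12 of 12 window counts and 18 of 18 comparisons. The genes and lists were chosen with earlier results of these data known. Named are hid, grim, rpr and skl, other genes of the window, the pathway list, and stretches held in most lines, near a start, at q 1e-10 or in Dfd lines beside rpr.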

Additional observations from a re-analysis of the deposited data

Results flagged for a closer look

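At q 1e-2, some changes in the number of regions in the window with an added cofactor went in opposite directions for different Hox proteins. Dfd had 18 regions and 24 with Hth, while Ubx had 4 and 2, a difference of 8 between the changes. Set beside the same Dfd lines, Abd-B had 25 and 22 with Hth, a difference of 9. With Gcm, Dfd went from 18 to 16 and Ubx from 4 to 13, a difference of -11 (Dfd minus Ubx). In the other Gcm pairs both counts were higher with Gcm, from 24 in Dfd+Hth to 27 and from 2 in Ubx+Hth to 13, and the share of regions in the window was also higher in Dfd+Gcm (0.180%) than in Dfd (0.174%). At q 1e-10 none of these contrasts went in opposite directions. With Hth, Dfd went from 5 to 13, Ubx had 1 in both lines and Abd-B went from 11 to 16, and with Gcm, Dfd went from 5 to 7 and Ubx from 1 to 10. All these are differences between single lists of merged replicates, and none was tested.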

How the results depend on the processing

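No paired analysis was possible by replicate number because the lists join both replicates of a line and no library number occurs in more than 1 line. The pairs tested in the report are pairs of lines. At q 1e-10 the window held 109 regions in place of 204, and the count of a line moved by over 1.5 times in 9 of 12 lines. No flank, a 20 kb flank or the centre of the region moved none of the 12. Regions lost with Hth fell from 21 to 10 at q 1e-10 in both lines and to 3 with q 1e-10 against q 1e-2, and those lost with Gcm from 11 to 2 and to 0. Regions gained with Hth fell from 33 to 17 and with Gcm from 32 to 14 with q 1e-10 against q 1e-2, and were 32 and 24 at q 1e-10 in both lines. An overlap of 50% changed none of these 4 counts. The mean difference in share, in percentage points, ranged from 0.00453 to 0.045 with Hth and from 0.0473 to 0.0833 with Gcm when each pair was left out. At q 1e-10 it was 0.0679 with Hth and 0.145 with Gcm, and by share of covered bases 0.0307 and 0.0964. It was positive under every alternative run. The 44 stretches at q 1e-10, the 69 from 400 bp windows and the 20 to 23 pathway genes bound in any line were within 1.5 times the main counts. Bound pathway genes per line moved in 7 of 12 lines at q 1e-10 and in 1 of 12 with the gene body alone. Lists without depth or signal limit each statement to presence or absence at a threshold.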
